A study of Mus musculus with 32 samples.

Results

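RNA levels of 47 genes of the TGF-beta, BMP and Nodal pathway were compared between WT mouse embryonic stem cells (mESCs) and mESCs labelled Eed-/-. The genes were chosen by symbol, as a fixed list of pathway genes, from 24028 gene symbols, and every one of them had 1 value in each library. The list holds 21 genes of the ligand group, Lefty1 and Lefty2 among them, 11 receptors, 8 Smads and 7 antagonists or repressors. The study asked how Polycomb keeps DNA methylation valleys (DMVs), the large hypomethylated domains at developmental genes, free of DNA methylation. RNA-seq was 1 of its assays, with 1 library per genotype. Both RNA-seq samples are labelled as the TT2 line, grown in serum and LIF on gelatin without added treatment, one of WT genotype and the other Eed-/-. For Eed-/-, other assays of the study name a different line, and which line the RNA came from could not be told from the sources used here, so line, culture and genotype cannot be told apart.

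The pathway starts with secreted dimers that bring together type II and type I receptor kinases. TGF-beta, activin and Nodal ligands act through Smad2 and Smad3, and BMP ligands through Smad1, Smad5 and Smad9, with Smad4 shared by both arms. Smad6 and Smad7 inhibit the signal inside the cell, while Lefty proteins, Noggin, Chordin, Follistatin, Gremlin and Cerberus hold back ligands outside it. In the early embryo Nodal signalling patterns the epiblast and sets left and right, and in mESCs BMP4 together with LIF supports self-renewal.

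EED is the subunit of Polycomb repressive complex 2 that binds methylated H3K27. The gene Eed had a level of 63.0 FPKM (a fragment number scaled by transcript length and library size) in WT and 70.9 in the Eed-/- labelled library, so its transcript was not reduced, and EED protein was not measured here. The study checked its Eed-/- cells through the H3K27me3 mark by western blot and ChIP-seq, which were not analysed here. The depth was about 7240000 fragments in WT and 6460000 in the Eed-/- labelled library. The 9 pluripotency markers, among them Pou5f1, Sox2 and Nanog, were all at an FPKM above 2 in both libraries and summed to 1453 and 1653. Among markers of other cells, the 9 primitive endoderm genes summed to 87.3 in WT and 124.6 in the Eed-/- labelled library, the 8 trophoblast genes to 60.1 and 20.6, the 9 fibroblast genes to 3.48 and 10.9 and the 7 mesendoderm genes to 2.35 and 5.90. A few genes carried the primitive endoderm, trophoblast and fibroblast sums. Sparc (71.9 and 67.9) held most of the primitive endoderm sum, and Lama1 (8.25 and 33.5) and Col4a1 (5.62 and 19.1) had its largest increases. Gata4, Gata6, Sox17 and Sox7 were higher at low levels, Dab2 was nearly level, and Foxa2 was listed at 0 in the Eed-/- labelled library. Tfap2c (39.8 and 9.21) held most of the trophoblast sum in WT, where Eomes, Hand1 and Gata3 had the opposite direction, and Thy1 (0.976 and 6.97) and Fbln2 (1.33 and 3.39) most of the fibroblast sum, where Col1a1, Col1a2, Col3a1 and Pdgfrb had lower values in the Eed-/- labelled library. Elf5 and Dcn were listed at 0 in both libraries. The part of these cells in the values below was not tested, and in bulk samples fewer cells of a type cannot be told apart from less RNA per cell. With 1 library per genotype there is no replicate check, no p-value was computed, and the intervals given here cover counting error only.

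Of the 47 genes, 40 had a mean normalized FPKM of at least 0.1 and 7 did not. Changes are differences in log2(FPKM + 1) after quantile normalization, the Eed-/- labelled library minus WT, on which the changes of weakly expressed genes come out too small. Lefty2 and Bmp8a were at least 2-fold higher on this scale, and Tgfb1, Inhbb and Smad1 at least 2-fold lower. These are 2 genes higher and 3 lower of 40, against 3.8% higher, 3.98% lower and 7.78% in either direction of all 14835 genes used. The median change of the 40 genes was 0.04, and that of all genes used was 0.01. A change of at least 1.5-fold was found for 13 of the 40 genes, against 24.7% of all genes used. By count and by median the list as a whole was close to the background, and the differences lay in single genes.

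**Figure D1:**
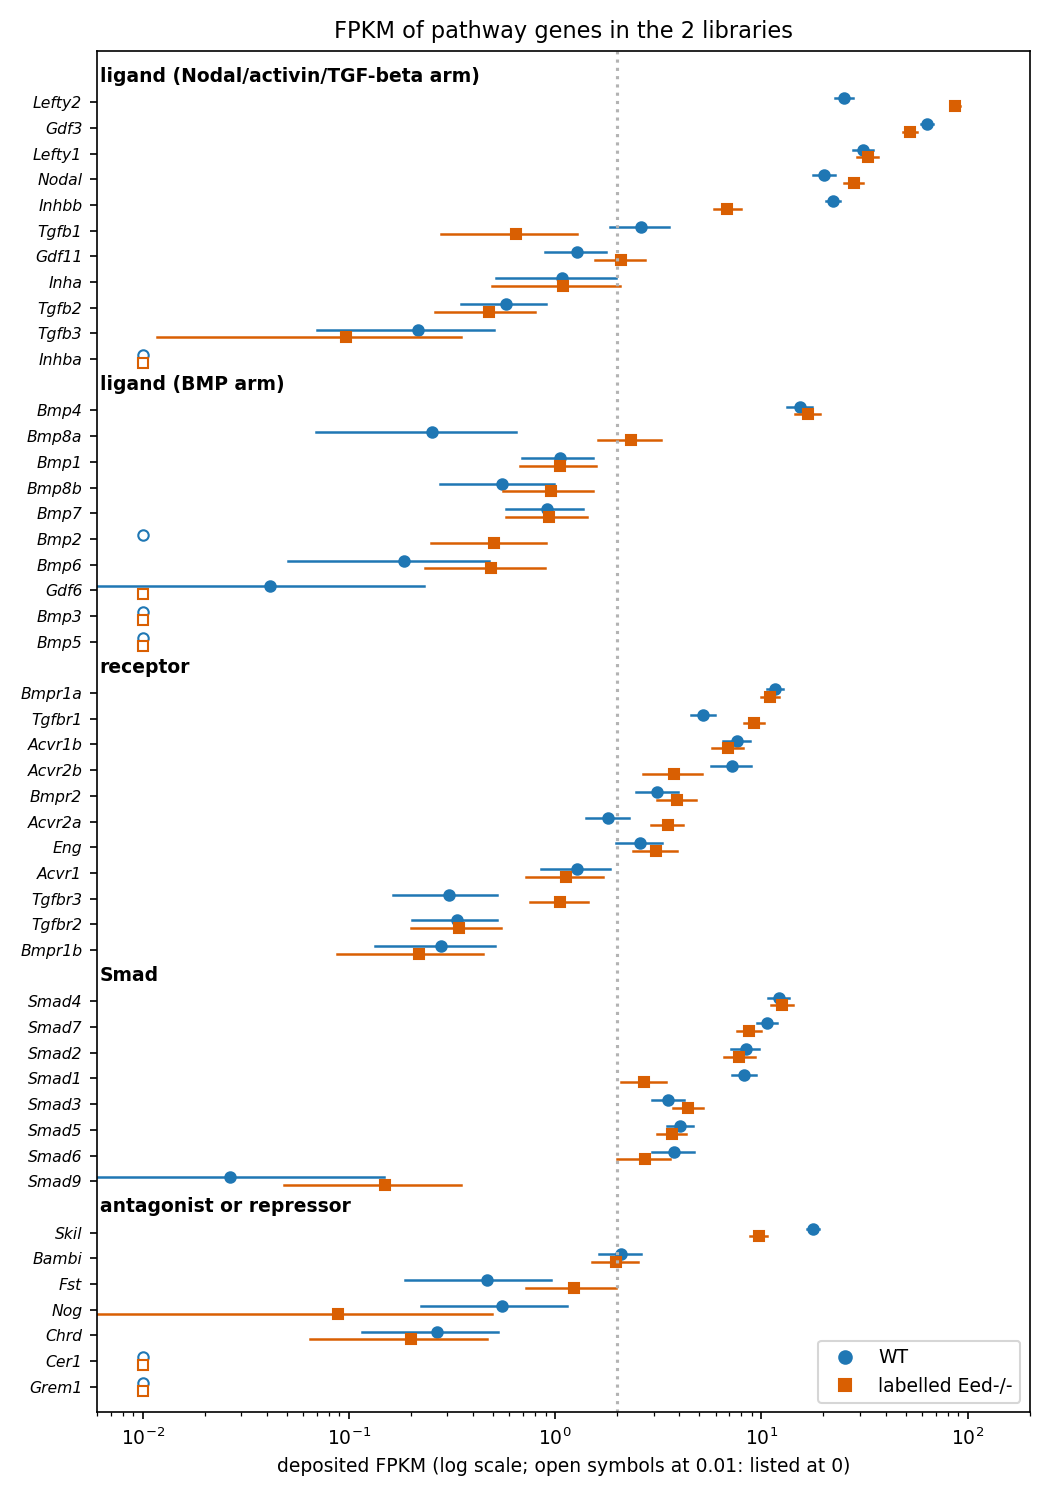
Deposited FPKM (log axis) of each of the 47 genes in WT (circles) and in the Eed-/- labelled library (squares), with 95% Poisson intervals of the fragment number as bars, cut at the left axis where they run past it. Open symbols mark values listed at 0 and the dotted line an FPKM of 2. Lefty2 stands at 25.2 and 86.5, and Inhbb at 22.2 and 6.85, with bars that do not meet.

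The levels spanned a wide range. In WT the highest values of the list were those of Gdf3, Lefty1, Lefty2, Inhbb and Nodal, in that order, and in the Eed-/- labelled library those of Lefty2, Gdf3, Lefty1, Nodal and Bmp4. At a normalized FPKM of 2 or more in both libraries stood 21 genes, and 22 were under 2 in both. Of all 24028 symbols, 8687 stood at 2 or more in both libraries and 14139 under 2 in both. Gdf11, Bmp8a and Acvr2a were under 2 in WT and above it in the Eed-/- labelled library, and Tgfb1 was the reverse. Inhba, Bmp3, Bmp5, Grem1 and Cer1 were listed at 0 in both libraries. For Cer1, 3 fragments, taken as the upper limit of a count of 0 at about 95%, would be 0.266 FPKM in WT and 0.298 in the Eed-/- labelled library. A value listed at 0 can also be a failed estimate.

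**Figure D2:**
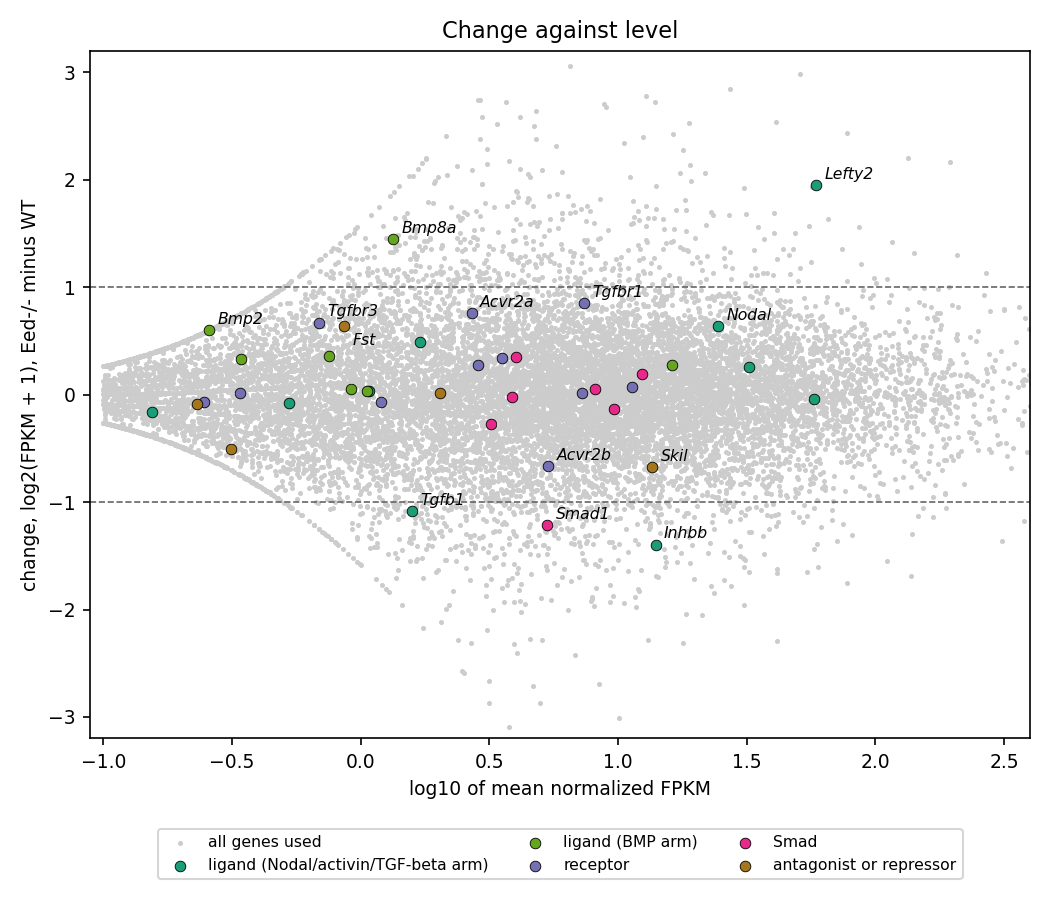
Change on the log2(FPKM + 1) scale (vertical axis) against the log10 of the mean normalized FPKM (horizontal axis) for the 40 pathway genes, coloured by role, and for all genes used (grey), of which 171 lie outside the axes. Dashed lines mark a 2-fold change, which Lefty2 and Bmp8a pass upwards and Inhbb, Smad1 and Tgfb1 downwards.

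DMVs are defined by their low methylation at CpG sites, so the CpG content of the promoters was read as well. RefSeq promoter sequences were given for 30 of the 47 genes (35 start sites), and all 35 were placed on NCBIM37 (mm9) by an exact match. Over the 250 bases upstream of the start site, the median was 22 CpGs for these promoters and 6 for all 32817 promoters of the table. The sequences of 6 genes are shown 5′ to 3′ on the strand of the gene with each CpG in capitals. They are those of 4 genes that differed by at least 2-fold, of Nodal as the ligand at the head of its arm, and of Cer1, which was listed at 0.
Inhbb (chr1:121318826-121319075, minus strand): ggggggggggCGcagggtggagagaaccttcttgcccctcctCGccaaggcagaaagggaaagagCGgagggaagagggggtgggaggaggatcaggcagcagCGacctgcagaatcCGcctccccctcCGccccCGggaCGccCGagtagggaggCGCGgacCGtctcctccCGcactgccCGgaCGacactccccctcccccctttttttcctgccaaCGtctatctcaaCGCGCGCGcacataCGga
Tgfb1 (chr7:26471771-26472020, plus strand): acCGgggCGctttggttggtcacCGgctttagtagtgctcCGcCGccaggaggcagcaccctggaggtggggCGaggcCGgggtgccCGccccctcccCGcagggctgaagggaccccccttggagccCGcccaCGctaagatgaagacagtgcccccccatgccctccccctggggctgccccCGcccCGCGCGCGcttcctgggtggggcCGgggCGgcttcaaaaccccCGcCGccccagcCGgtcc
Smad1 (chr8:81923418-81923577, minus strand, the part outside the annotated gene): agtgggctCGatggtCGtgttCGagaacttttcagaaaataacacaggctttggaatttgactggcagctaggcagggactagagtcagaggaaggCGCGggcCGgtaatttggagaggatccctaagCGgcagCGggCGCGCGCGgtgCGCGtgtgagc
Bmp8a (chr4:123020496-123020745, minus strand): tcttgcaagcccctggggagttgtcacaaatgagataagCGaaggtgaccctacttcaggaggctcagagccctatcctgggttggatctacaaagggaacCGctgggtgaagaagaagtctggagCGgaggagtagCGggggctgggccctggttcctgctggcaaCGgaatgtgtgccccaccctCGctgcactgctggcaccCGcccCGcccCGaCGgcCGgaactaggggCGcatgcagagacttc
Nodal (chr10:60880470-60880719, plus strand): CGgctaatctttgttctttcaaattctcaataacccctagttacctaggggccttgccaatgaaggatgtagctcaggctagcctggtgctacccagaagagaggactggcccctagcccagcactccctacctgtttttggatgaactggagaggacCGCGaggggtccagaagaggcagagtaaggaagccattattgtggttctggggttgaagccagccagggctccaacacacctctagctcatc
Cer1 (chr4:82531056-82531305, minus strand): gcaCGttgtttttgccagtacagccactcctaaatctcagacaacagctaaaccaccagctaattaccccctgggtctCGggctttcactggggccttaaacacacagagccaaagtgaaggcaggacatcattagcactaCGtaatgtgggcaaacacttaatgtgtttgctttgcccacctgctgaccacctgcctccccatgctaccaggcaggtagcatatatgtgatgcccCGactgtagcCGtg

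The promoters of the 3 genes that were at least 2-fold lower stood near the median of the pathway promoters and above most of all promoters. Inhbb and Tgfb1 had 21 CpGs each and Smad1 25 over its 250 bases, more than 83.7% and 89.3% of all promoters. Bmp8a, which was higher, had 12, more than 66.5% of all promoters, and Cer1 had 5. Of the other genes listed at 0 in both libraries, Grem1 had 24 CpGs, Bmp5 4 and Inhba 3. For Lefty2, the other gene that was at least 2-fold higher, no promoter sequence was given, so higher and lower genes cannot be compared here. Nodal had 3 CpGs in this window, although the study lists it as a DMV gene. The letters GGCGCC, a GC-rich Smad element, stood in 7 of the 35 windows (in Bmpr1a, Bmpr2, Chrd, Grem1, Smad5, Smad9 and Tgfbr1) and in 9.59% of all promoters. This word holds a CpG, and the medians were 22 CpGs for these windows and 6 for all promoters. Promoters of similar CpG content were not compared. GTCTAGAC, the palindromic Smad element, and AATNCACA, a FOXH1 motif, read on both strands, were in 0 of the 35 windows and in 0.168% and 3.18% of all promoters. A match or its absence describes these letters in this window only.

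Among ligands of the Nodal, activin and TGF-beta arm, Lefty2 was far higher and Inhbb far lower in the Eed-/- labelled library. Lefty2, an inhibitor of Nodal that Nodal signalling itself induces, lies on chromosome 1 of mm9 (182823239 to 182829234). Its FPKM was 25.2 in WT and 86.5 in the Eed-/- labelled library, about 417 and 1281 fragments, and its change was 1.95. The ratio of normalized FPKM was 3.99 (95% counting interval 3.57 to 4.47). Lefty1, its neighbour on the same strand (182865153 to 182868531), had an FPKM of 31.2 and 32.7 and a change of 0.26. The ratio of Lefty2 to Lefty1 was thus 0.806 in WT and 2.64 in the Eed-/- labelled library. The coding sequences of the pair are 92.0% identical, but 11.6% of the 50-base windows of the Lefty2 transcript occur in another coding transcript and 3.07% of its 100-base windows, so most of its length can be told apart from Lefty1 at either length. The read length is not given in the sources used here.

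Nodal had a level of 20.1 FPKM in WT and 28.1 in the Eed-/- labelled library, a ratio of 1.58 (interval 1.35 to 1.86) and a change of 0.64. Gdf3, a Nodal-related ligand that was the highest ligand in WT, had values of 63.5 and 52.4 and a change of -0.04, and its counting interval of 0.875 to 1.07 held a ratio of 1. Inhbb encodes the beta B chain of activin B and lies on chromosome 1 as well. Its FPKM was 22.2 in WT and 6.85 in the Eed-/- labelled library, about 654 and 180 fragments. The level was 2.86-fold lower after normalization (interval 2.42 to 3.39), with a change of -1.40. The other activin chain gene of the list, Inhba, was listed at 0 in both libraries, and Inha, the inhibin alpha chain, stood at 1.07 and 1.09. Genes of chromosome 1 had a median change of -0.29 over 752 genes. Relative to that median, the changes were 2.24 for Lefty2, 0.55 for Lefty1 and -1.11 for Inhbb, so the 2-fold calls did not depend on it, and what moves chromosome 1 was not tested.

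Of the TGF-beta ligands proper, Tgfb1 was the highest in WT. Its FPKM was 2.60 in WT and 0.647 in the Eed-/- labelled library, about 38 and 8 fragments, and its change was -1.08. The level was 3.80-fold lower (interval 1.75 to 9.44). Tgfb2 had values of 0.579 and 0.477, and Tgfb3 of 0.216 and 0.0967, and the intervals of both ratios held 1. Gdf11, a ligand of activin type receptors, had values of 1.27 and 2.09 and a ratio of 1.73 (interval 1.11 to 2.73). Over the 10 genes of this arm that were used, 5 were higher and 5 lower, with a median change of -0.005.

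**Figure D3:**
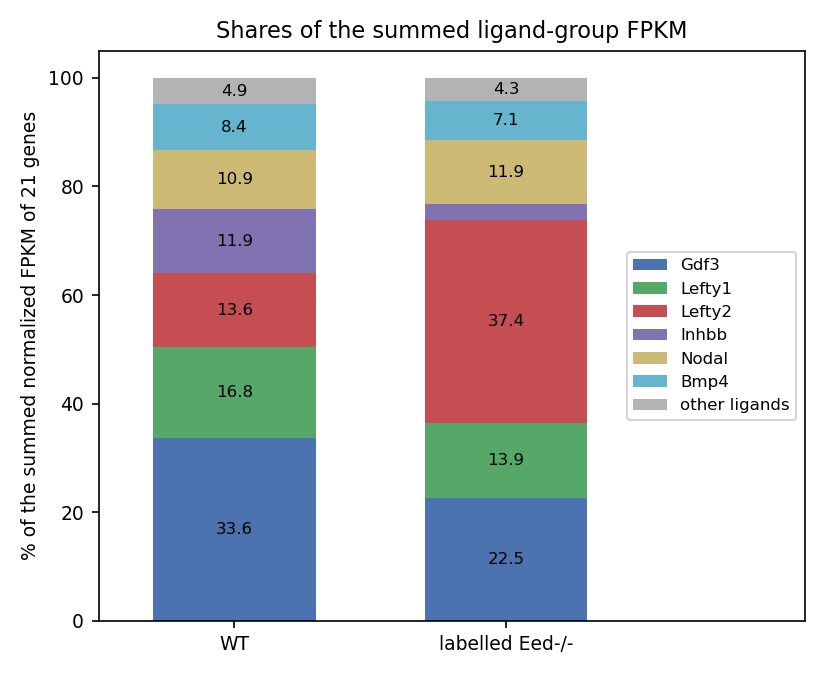
Share of each gene (in percent, bars from 0) in the summed normalized FPKM of the 21 genes of the ligand group, for WT and the Eed-/- labelled library. Lefty2 takes 13.6% in WT and 37.4% in the other library, and Inhbb 11.9% and 2.88%.

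Measured as shares of the summed normalized FPKM of the 21 genes of the ligand group, 6 genes held most of the RNA in both libraries, as the plot of ligand shares shows. Gdf3 held 33.6% in WT and 22.5% in the Eed-/- labelled library. Nodal held 10.9% and 11.9%, and Lefty1 16.8% and 13.9%. The share of Bmp4 was 8.35% and 7.07%. A share moves with every gene in the sum, so the lower share of Gdf3 stands beside a change in level of -0.04.

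In the BMP arm, 7 of 10 genes were used and 1 of them, Bmp8a, passed 2-fold, against 7.78% of all genes used. The median change of the 7 was 0.33, and it was 0.16 over all 10 genes with no filter and 0.85 with a pseudocount of 0.01. The direction of Bmp2 was fixed by the filter, which it passed only through the library where it was detected, and Gdf6, with the opposite direction, did not pass it. Bmp1, Bmp6, Bmp7 and Bmp8b had intervals that held 1. Bmp8a (chromosome 4, 122989888 to 123020495), known for its role in germ cell formation, had a level of 0.253 FPKM in WT and 2.34 in the Eed-/- labelled library. These values stand for about 4 and 34 fragments, and the change was 1.45. The ratio was 9.54, with a wide interval of 3.40 to 37.0. Bmp8b, its close copy on the same chromosome, had values of 0.551 and 0.954, and its interval of 0.801 to 4.28 held 1. The ratio of Bmp8a to Bmp8b was 0.459 in WT and 2.45 in the Eed-/- labelled library. The coding sequences of the pair are 85.9% identical, and 8.91% of the 50-base windows of Bmp8a occur elsewhere, so a part of their reads may be shared.

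Bmp4, the BMP ligand with the highest level, had a level of 15.3 FPKM in WT and 16.8 in the Eed-/- labelled library, with a ratio of 1.23 (interval 1.01 to 1.49). Bmp2 was listed at 0 in WT and at 0.503 in the Eed-/- labelled library, where it stood for about 11 fragments, and 3 fragments would be an FPKM of 0.123 in WT. Bmp6 had values of 0.186 and 0.486, with an interval of 0.751 to 11.4. Bmp7, at 0.912 and 0.932, and Bmp1, a protease that cleaves procollagen and Chordin rather than a ligand, at 1.05 and 1.06, differed by less than counting error. Gdf6 was at 0.0413 in WT, about 1 fragment, and listed at 0 in the Eed-/- labelled library.

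Of the 11 receptor genes, 0 passed 2-fold on the log2(FPKM + 1) scale, with a median change of 0.08. Of all genes used, 7.78% passed it in either direction, so 0 of 11 is not far from that share. The ratios of normalized FPKM, which hold no pseudocount, passed 2 for Tgfbr3 and Acvr2a. With a pseudocount of 0.01 their changes were 1.79 and 1.06. On that scale 1914 of all 14835 genes used were at least 2-fold higher and 1989 lower. Tgfbr1, the type I receptor of TGF-beta, had a change of 0.85, from an FPKM of 5.23 in WT to 9.24 in the Eed-/- labelled library, and a ratio of 1.96 (interval 1.65 to 2.34). Its partner Tgfbr2, the type II receptor that binds TGF-beta, was low in both libraries, at 0.336 and 0.342. Tgfbr3, the co-receptor betaglycan, had values of 0.307 and 1.06, about 13 and 40 fragments, and a ratio of 3.53 (interval 1.85 to 7.20).

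The activin type II receptors differed in opposite directions. Acvr2a had a level of 1.80 FPKM in WT and 3.51 in the Eed-/- labelled library, a ratio of 2.09 (interval 1.55 to 2.83) and a change of 0.76. Acvr2b had values of 7.17 and 3.77, 1.74-fold lower (interval 1.17 to 2.63), with a change of -0.67. In WT, Acvr2b was thus the higher of these 2 receptors, while in the Eed-/- labelled library their levels were close. Bmpr1a, the main BMP type I receptor here, stood at 11.6 and 11.02, and Acvr1b, the activin and Nodal type I receptor, at 7.60 and 6.85. The intervals of both held 1, and the signs of their small changes depended on the scaling. Bmpr2, the BMP type II receptor, had values of 3.13 and 3.91 (interval 0.981 to 1.88), and Eng, an endothelial co-receptor, 2.58 and 3.09. Acvr1 (1.28 and 1.13) and Bmpr1b (0.278 and 0.218) had intervals that held 1.

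Among the Smads, Smad1 was at least 2-fold lower, and the changes of the other 6 genes used lay between -0.28 and 0.35. The median change over all 7 was -0.02, and 3.98% of all genes used were at least 2-fold lower. Smad1, which carries the BMP signal, lies on chromosome 8 (81862294 to 81923417). Its FPKM was 8.26 in WT and 2.70 in the Eed-/- labelled library, about 215 and 63 fragments, and its change was -1.22. The level was 2.80-fold lower (interval 2.10 to 3.76). Genes of chromosome 8 had a median change of -0.38 over 702 genes. Relative to it the change of Smad1 was -0.83, which is no longer 2-fold on the log2(FPKM + 1) scale. With a pseudocount of 0.01 the change of Smad1 was -1.48, and chromosome medians were not taken on that scale. Smad5, the other main BMP Smad in these cells, stood at 4.05 and 3.68, with an interval of 0.786 to 1.22, and Smad9 at 0.0266 and 0.149, about 1 and 5 fragments. In WT the level of Smad1 was the higher of Smad1 and Smad5, and in the Eed-/- labelled library that of Smad5 was.

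Smad2 and Smad3, which carry Nodal, activin and TGF-beta signals, had FPKM values of 8.39 and 7.83 and of 3.53 and 4.42. The ratio of Smad3 was 1.36 (interval 1.06 to 1.74), and that of Smad2 was 1.04, with an interval of 0.823 to 1.32. Smad4, shared by both arms and the highest Smad in both libraries, stood at 12.1 and 12.5. The inhibitory Smad7 had values of 10.7 and 8.73 and Smad6 of 3.77 and 2.72. Both had changes below 0, at -0.13 and -0.28, and the intervals of both ratios held 1.

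Of the antagonists and repressors, 5 of 7 were used. On the log2(FPKM + 1) scale 0 of these 5 passed 2-fold, against 7.78% of all genes used. The ratio of Fst, without a pseudocount, was above 2. With a pseudocount of 0.01 its change was 1.45, and 1914 of all 14835 genes used were at least 2-fold higher. The counts of this group leave out Lefty1 and Lefty2, which inhibit Nodal but were counted in the ligand group. Lefty2 had a change of 1.95. Skil encodes SnoN, a nuclear repressor of Smad-driven transcription, and was the highest of the group. Its FPKM was 17.9 in WT and 9.70 in the Eed-/- labelled library, about 845 and 409 fragments, a level 1.65-fold lower (interval 1.47 to 1.86). The related repressor Ski, of the other pathway genes, had values of 13.1 and 8.36, a level 1.41-fold lower (interval 1.22 to 1.64). Fst, which encodes Follistatin and binds activin, had values of 0.466 and 1.24, about 7 and 17 fragments, with a ratio of 2.76 (interval 1.09 to 7.88). Nog, the BMP antagonist Noggin, stood at 0.555 and 0.0889, which are 7 fragments and 1, and the interval of its ratio held 1. Chrd was at 0.268 and 0.2003. Bambi, a decoy receptor, was at 2.08 and 1.98, with an interval of 0.715 to 1.45.

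Counting error alone was passed by 16 of the 39 genes used with fragments in both libraries, that is, their interval left out a ratio of 1, against 48.7% of all 12904 genes for which such an interval was made. These intervals do not hold the spread between cultures, which was not measured. They lie about the normalized ratio, so whether they hold 1 can depend on the scaling. With the FPKM as deposited, the changes of Lefty1, Bmp4 and Gdf3 were 0.07, 0.13 and -0.27, against 0.26, 0.28 and -0.04.

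The study lists 12 of the 47 genes as DMV genes in mESCs, namely Nodal, Tgfb1, Inhbb, Gdf6, Bmp4, Bmpr2, Acvr1b, Acvr2a, Smad6, Smad7, Nog and Fst. Of the 11 that were used, 0 were at least 2-fold higher and 2, Tgfb1 and Inhbb, at least 2-fold lower, against 3.8% and 3.98% of all genes used, with a median change of 0.02. The other 29 genes used had a median change of 0.05. Lefty2 and Bmp8a, the 2 genes at least 2-fold higher, are not among the listed genes. Of the 12 listed genes, 7 stood at a normalized FPKM of 2 or more in both libraries. So did 14 of the 35 genes not listed and 8687 of all 24028 symbols.

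To set the 47 genes beside their pathway, 70 other genes were looked up, of which 56 were used. Of these, 3 were at least 2-fold higher, 3 at least 2-fold lower and 50 neither, against 3.8% and 3.98% of all genes used, and the median change was -0.03. Most of these calls lay close to the threshold. With the FPKM as deposited, the changes of the 3 higher genes, Pcsk6, Id4 and Cdkn2b, were 0.92, 0.96 and 0.996, which are under 2-fold, and with median-ratio scaling that of Zfyve9 was -0.98. Tdgf1, the Nodal co-receptor Cripto, was the highest of all 70 genes, with 125 FPKM in WT and 102 in the Eed-/- labelled library and a change of -0.004. Foxh1, the cofactor that brings Smad2 and Smad3 to Nodal targets, had values of 17.0 and 27.3 and a ratio of 1.82 (interval 1.45 to 2.27). Pcsk6, a convertase that matures Nodal and related ligands, had values of 11.3 and 22.3 and a change of 1.08, with a ratio of 2.21 (interval 1.93 to 2.54). Furin, another convertase, was at 2.19 and 2.18. Htra1, a secreted protease, was the highest of the extracellular modulators, at 35.9 and 33.0, and Fkbp1a, which binds type I receptors, the highest of the intracellular regulators, at 54.6 and 45.9, and the intervals of both ratios held 1. Zfyve9, the adaptor SARA that presents Smad2 and Smad3 to the receptor, had values of 8.40 and 3.35, a level 2.30-fold lower (interval 1.89 to 2.82), with a change of -1.01 just past the threshold. Twsg1, a BMP modulator, had values of 4.80 and 8.10 and a change of 0.77. Nedd4l, a ubiquitin ligase for Smad2 and Smad3, was at 1.37 and 3.11, with a change of 0.85.

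**Figure D4:**
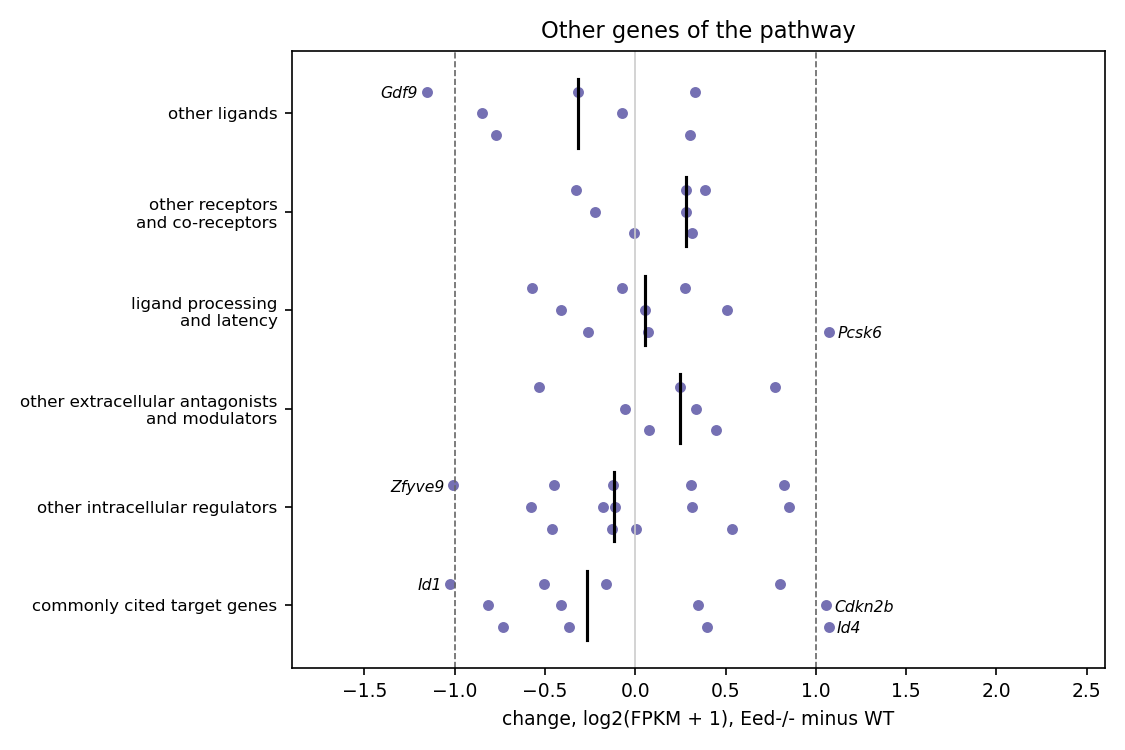
Changes on the log2(FPKM + 1) scale (horizontal axis) of the 56 other pathway genes used, 1 point per gene, by list, with the list's median as a black bar and 2-fold changes as dashed lines. Vertical position within a list has no meaning. Pcsk6 lies furthest right, at 1.08, and Gdf9 furthest left, at -1.16.

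Genes that are commonly cited as targets of the pathway differed in both directions. Of the 12 used, 2 were at least 2-fold higher, 1 at least 2-fold lower and 9 neither. Of all genes used, 3.8% were higher and 3.98% lower by this threshold, and the median change of the 12 was -0.26. The 2 higher calls, Id4 and Cdkn2b, depended on the scaling, as both were under 2-fold before quantile normalization, at 0.96 and 0.996. Id1, the lower gene, stayed past 2-fold there, at -1.23. Id genes, which answer BMP signalling, were split. Id1 had values of 76.5 FPKM in WT and 32.0 in the Eed-/- labelled library, a level 2.06-fold lower (interval 1.75 to 2.44) with a change of -1.02, and Id3 had values of 74.2 and 49.0 and a change of -0.37. Id2 stood at 15.6 and 17.995, with a change of 0.35, and Id4 at 2.89 and 6.59, with a change of 1.07. Msx2, another BMP target, was at 0.209 and 1.09, about 3 and 16 fragments.

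Tgfbi, named for its induction by TGF-beta, was at 3.82 FPKM in WT and 1.61 in the Eed-/- labelled library, Ctgf at 10.0 and 6.07 and Junb at 27.2 and 14.2. Junb lies on chromosome 8, and relative to that chromosome its change of -0.73 was -0.35. Cdkn2b, an inhibitor of cyclin-dependent kinases, had values of 0.909 and 2.81, a ratio of 3.30 (interval 1.41 to 8.56) and a change of 1.06. Many of these genes also answer other signals. Among the other ligands, Gdf9, an oocyte factor, had the lowest change, from 2.38 to 0.477, about 28 and 5 fragments. The ligands Gdf1 and Gdf15 and the Nodal antagonist Dand5, all on chromosome 8, had changes of -0.85, -0.77 and -0.53, which are under 2-fold. Relative to the median of that chromosome the changes were -0.47, -0.39 and -0.15, and the interval of Dand5, 0.170 to 1.26, held 1. Gdf1, the highest of the other ligands in WT at 4.54 against 1.90, shares its locus with another gene, so its value is uncertain.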

How the data were processed

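RNA was measured in 2 libraries, WT and labelled Eed-/-, 1 per genotype. The authors depleted total RNA of ribosomal RNA, made strand-specific libraries, aligned reads to mm9 (TopHat) and estimated levels with Cufflinks. The submitters' processing notes also name TopHat2 2.0.11 and Cufflinks 2.2.1. The values deposited for each symbol are FPKM, and the annotation and options are not given in the sources used here.

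Values of repeated symbols were added, both libraries were then quantile-normalized, and a change was taken as the difference in log2(FPKM + 1) for genes with a mean of at least 0.1. A 2-fold change was the threshold. Depth was recovered from low values of 5103 genes that have 1 transcript in the annotation, 1000 bp or longer, less 180 bp. Within 0.1 of a whole fragment number lay 78.9% of 840 low values in WT and 79.6% of 951 in the other library, against 20.8% and 21.1% with lengths shuffled. Fragment numbers used the longest GENCODE vM1 transcript and are approximate where a gene has several, and only 16 of the 47 genes have 1. Intervals of ratios are exact conditional binomial intervals (Clopper-Pearson, 95%), taken about the normalized ratio. No test across genes was made. PCR reads without molecular identifiers are not independent molecules.

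The 47 genes and all lists were chosen with earlier results of these data known. Every one of the 47 may be named. Full values were given for genes with a 1.5-fold change or a normalized FPKM of at least 20 and for the highest of each role, and of the 70 other genes for those with a 2-fold change and the highest of each list. Further genes of both lists were named after their values were seen. Of the other genes first listed, 2 are not reported here and enter no count over that list. DMV genes were read from the study's own list. Windows shared with other genes were counted in GENCODE coding transcripts. Motifs were chosen after the expression values were seen. Alternatives tried were median-ratio scaling, the deposited FPKM, pseudocounts of 0.1 and 0.01, no filter or a mean of at least 1, repeated symbols left out, changes centred on chromosome medians, and thresholds of 3-fold and 1.5-fold. The computations were tested on simulated data. Scripts ran under Python 3.11.15 with scipy 1.17.1, pandas 2.3.3 and numpy 2.4.6, and plots were drawn with matplotlib 3.10.9. ChIP-seq, DNA methylation and 4C-seq samples were not analysed here.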

Additional observations from a re-analysis of the deposited data

How the results depend on the processing

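Of the 47 genes, 15 had a 1.5-fold change or a normalized FPKM of at least 20. They kept the sign of their change in all 117 values under the alternatives. A pseudocount or a filter cannot change a sign, so only the scaling, repeated symbols and chromosome medians could have. As 13 of the 15 were picked for a change of at least 1.5-fold, a change of sign was unlikely from the start. Without quantile normalization the median change over all genes used was -0.09, and 455 genes were at least 2-fold higher and 801 lower, against 564 and 590. Under that scaling 0 of the other pathway genes were at least 2-fold higher, against 3. With a pseudocount of 0.1, 7 of the 47 genes were at least 2-fold higher and 4 lower (of all 14835 genes used, 1694 and 1778), and of the other pathway genes 11 were higher and 8 lower. With 0.01, 7 were higher and 5 lower (all genes 1914 and 1989), and of the other pathway genes 12 and 9. With a 3-fold threshold, 1 of the 47 genes was higher and 0 lower (all genes 152 and 137), and of the other pathway genes 0 were higher and 0 lower. With a 1.5-fold threshold, 8 were higher and 5 lower (all genes 1819 and 1841), and of the other pathway genes 7 and 7. Centred on chromosome medians, the change of Smad1 was -0.83. The signs of Bmpr1a, Acvr1b, Smad2, Smad5 and Bambi depended on the scaling, and all 5 had intervals that held a ratio of 1. With 1 library per genotype no library could be left out. No paired analysis was possible because each genotype has 1 RNA-seq library. Depth limits the low values: on a transcript of 2 kb, an FPKM of 2 stood for 26.3 (WT) and 23.5 (Eed-/- labelled library) fragments.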

Other observations

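Markers of mesendoderm, a cell fate that Nodal signalling promotes, were low in both libraries and differed gene by gene. Gsc, a homeobox gene of the organizer, had a level of 0.415 FPKM in WT and 1.87 in the Eed-/- labelled library. Evx1 had values of 0.0513 and 1.32, and Kdr, a receptor of early mesoderm, 0.158 and 1.59. Of the 6 mesendoderm genes used, these 3 were at least 2-fold higher on the log2(FPKM + 1) scale and 0 lower. Of all genes used, 3.8% were higher and 3.98% lower. Gsc, Evx1 and Kdr stood for about 3, 1 and 7 fragments in WT, so their ratios are poorly known. Eomes, read here among trophoblast markers, had values of 0.478 and 1.93. T had values of 0.296 and 0.581, and Mixl1 (0.590 and 0.367) and Mesp1 (0.766 and 0.172) had lower values in the Eed-/- labelled library. The counting intervals of the ratios of T, Mixl1 and Mesp1 all held 1. Foxa2 was at 0.0731 in WT, about 1 fragment, and listed at 0 in the Eed-/- labelled library. The FPKM of all 7 stayed under 2 in each library.

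Of the other subunits of Polycomb repressive complex 2, Ezh2 had a level of 34.2 FPKM in WT and 17.7 in the Eed-/- labelled library, a level 1.69-fold lower (95% counting interval 1.47 to 1.96). Suz12 had values of 67.3 and 67.5, with a ratio of normalized FPKM of 1.18 (interval 1.10 to 1.25). With the FPKM as deposited its change was 0.005.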
